A study of Mus musculus with 6 samples.

Results

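Integrins are the adhesion receptors with which leukocytes leave the blood, move through tissue and grip targets. Each is a pair of 1 alpha and 1 beta chain, and the pairing sets which ligand is bound. The transcripts described here encode 10 subunits that myeloid and lymphoid cells use, taken by name from a table of 39179 genes measured in tumor-associated macrophages (TAMs). All 10 held enough counts to be tested, among 8793 genes tested in all. They fall into 4 functional groups. Itgb2 encodes the beta2 chain, which pairs in leukocytes with the products of Itgam (CD11b, forming the complement receptor Mac-1), Itgax (CD11c) and Itgal (CD11a, forming LFA-1, the receptor for ICAMs). Itga4 encodes the alpha4 chain, which pairs with the beta1 chain (Itgb1) to bind VCAM-1 and fibronectin, or with the beta7 chain (Itgb7) to bind MAdCAM-1. Itga6 encodes the alpha6 chain of laminin receptors, a partner of beta1. Itgav and Itgb5 encode the alphav and beta5 chains of a vitronectin receptor that also serves in the uptake of dying cells.

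TAMs were sorted as live CD45+ CD11b+ F4/80+ cells, negative for NK1.1 and Ly6G and negative or dim for Ly6C, out of melanomas formed under the skin of C57BL/6 hosts, 8 weeks old, by an injected Braf-mutant cell line. The tumor cells were wild type (Ptgs-competent, 3 libraries) or had lost Ptgs1 and Ptgs2 by CRISPR editing (Ptgs-deficient, 3 libraries), so that they could not make prostaglandins through the cyclooxygenases. The macrophages carried unedited Ptgs genes in both groups, and each library came from pooled tumors. The comparison asks which transcripts of TAMs differ with the ability of the tumor cells to make prostaglandin E2. CD11b is the product of Itgam, so the gate required it in every cell of both groups, and the other surface proteins used for sorting are not among these subunits.

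Libraries held 4431184 to 8760679 counts each, of which 5070 to 17103 came from the integrin subunits. The replicates varied widely, with a common biological coefficient of variation of 1.26, and 3.40% to 21.6% of tested genes had no count in a given library. The library Ptgs-competent 3 stood apart from the others in its marker genes. Its summed level of 12 macrophage markers was 6550 CPM (counts scaled to a common library size), against 17273 and 18364 in the other Ptgs-competent libraries and 21172 to 25246 in the Ptgs-deficient libraries. Its summed level of 12 fibroblast markers was 1119 CPM, against 337 and 399 in its group and 42.9 to 69.1 in the Ptgs-deficient group, with Lum at 0 throughout. Every macrophage marker on the list had counts, among them C1qa, Csf1r, Cd68 and Mertk. The platelet markers Gp9 and Gp6 were at 0 in every library. Pf4 and Ppbp, which platelets also hold, summed to 5794 to 11822 CPM in the Ptgs-competent group and 2618 to 3249 CPM in the Ptgs-deficient group. Of the T cell markers, 7 of 10 were at 0. Among dendritic cell markers Zbtb46, Xcr1 and Ccr7 were at 0. Of 12 neutrophil markers, Ly6g, Mpo and Elane were at 0 and 9 had counts, S100a8 and S100a9 ranging lower in the Ptgs-deficient group and Retnlg higher, with no overlap. Values without Ptgs-competent 3 are given beside many results. For all 10 subunits, the plot of fold changes gives the range of the fits that each left out 1 library. Ptgs1 and Ptgs2 differed by -1.11 (adjusted p = 0.962) and -0.998 (adjusted p = 1) on the log2 scale in the macrophages, which were not edited, so these values check no label. Without Ptgs-competent 3 they were -0.62 and -0.18.

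Itgam and Itgax are neighbors on the same strand of chromosome 7. In GRCm38, Itgam spans chr7:128062640-128118491 and Itgax spans chr7:128129547-128150657, 11055 bases downstream. Because their levels differed between the groups in opposite directions, as given with the values, the start regions of the pair are shown together. Each runs from 250 bases before to 50 bases after the start of the gene, on the plus strand of GRCm38.p6, as given by RefSeq. Itgam lies at chr7:128062390-128062689 and Itgax at chr7:128129300-128129599. Capitals mark GAGGAA, a core motif of the myeloid factor PU.1, read on either strand, where the minus strand appears as TTCCTC.
Itgam: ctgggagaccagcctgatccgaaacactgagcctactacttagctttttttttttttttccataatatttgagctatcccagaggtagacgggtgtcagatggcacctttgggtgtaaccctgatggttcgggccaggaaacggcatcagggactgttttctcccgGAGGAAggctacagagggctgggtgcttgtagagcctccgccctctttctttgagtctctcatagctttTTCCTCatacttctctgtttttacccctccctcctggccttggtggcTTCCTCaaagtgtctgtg
Itgax: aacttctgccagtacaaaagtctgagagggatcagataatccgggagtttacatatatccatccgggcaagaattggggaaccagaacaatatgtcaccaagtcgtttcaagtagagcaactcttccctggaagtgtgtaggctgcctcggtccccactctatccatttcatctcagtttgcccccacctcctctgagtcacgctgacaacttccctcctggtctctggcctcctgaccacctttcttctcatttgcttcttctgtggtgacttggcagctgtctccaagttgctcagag
The Itgam sequence held 3 matches and the Itgax sequence held 0. Of 32851 promoters of the same length, 28.3% held at least 1 match. The sequences of 7 members were in the RefSeq table, and Itgal, Itgb2 and Itga6 were not among them. Itgav held 2 matches, Itgb1 and Itgb7 held 1 each, and Itga4 and Itgb5 held 0. The interferon-gamma motif TTCNNNGAA, whose reverse complement has the same letters and whose matches can overlap the other motif, had no match in any of the 7, against a match in 8.3% of all promoters. These are matches of letters only.

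None of the 10 subunits passed the thresholds used by the study, an adjusted p of 0.05 or lower with a log2 fold change of 1.5 or more either way, in edgeR's quasi-likelihood test. In that test those thresholds called 0.216% of all genes tested. The study named the generalized linear model test of edgeR, which need not be the same form. At an unadjusted p under 0.05 there were 3 of 10 subunits, namely Itgam, Itgax and Itga6, against 8.83% of all genes. The ranges of CPM were apart for 4 of 10 subunits, against 19.0% of all genes. Itgam and Itga4 were higher in every Ptgs-deficient library than in any Ptgs-competent one, and Itgax and Itga6 were lower. The median log2 fold change of the 10 subunits was 0.01, against 0.02 for all genes tested, with 5 subunits fitted higher and 5 lower. The likelihood ratio test of edgeR, which called 2.74% of all genes, and limma voom, which called 1.4%, also called 0 of the 10, whereas DESeq2, which called 3.73% of genes, called 1, namely Itga6.

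**Figure D1:**
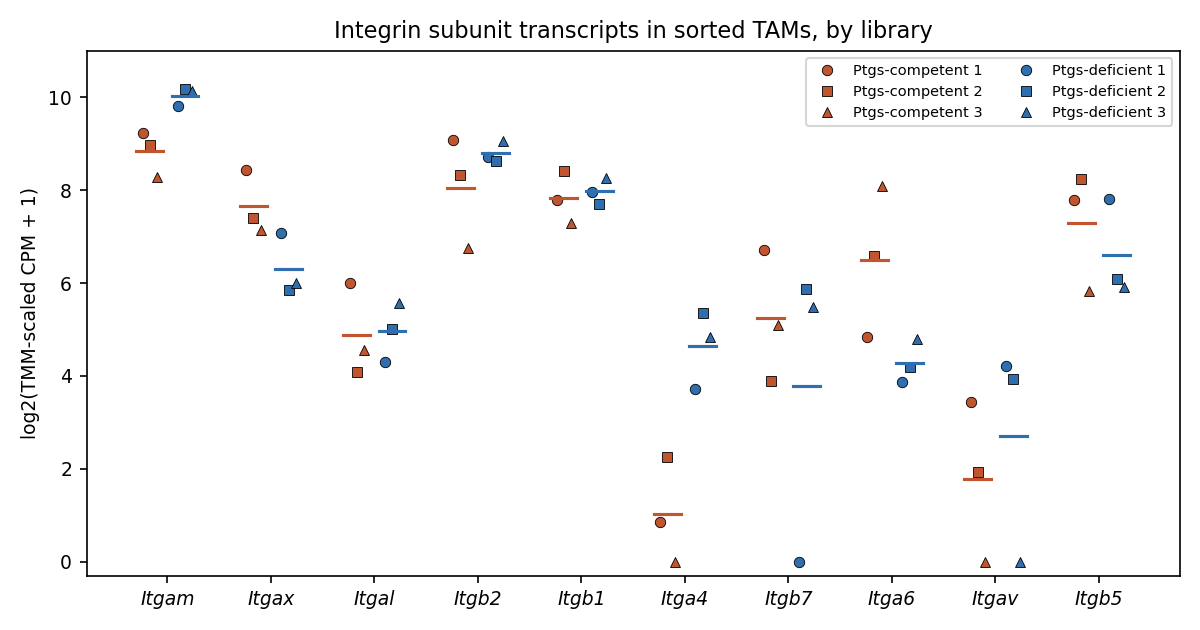
Level of each integrin subunit in each of the 6 libraries, as CPM on a log scale after adding 1, with 1 point per library, Ptgs-competent and Ptgs-deficient side by side and a bar at the mean of the log values. Points of the groups do not overlap for Itgam, Itgax, Itga4 and Itga6, and Itgam is the most abundant subunit in all 6 libraries.

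Levels are reported as CPM scaled by TMM. The libraries read the 3′ end of each transcript, so a count should not grow with transcript length. On that basis CPM is set side by side between genes, which was not checked for each 3′ end. Itgam was the most abundant of the 10 in all 6 libraries. In both groups the order of mean levels continued with Itgb2 and Itgb1. In the Ptgs-competent group Itgax, Itgb5, Itga6, Itgb7, Itgal, Itgav and Itga4 followed. Of the 9 pairs of neighbors in that order, only Itgal and Itgav did not overlap in range. In the Ptgs-deficient group Itgb5, Itgax, Itgb7, Itgal, Itga4, Itga6 and Itgav followed, and of 9 neighboring pairs those that did not overlap were Itgam with Itgb2 and Itgb2 with Itgb1. Pairs further apart in the order were not compared.

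Among the partners of beta2, Itgam was at 603, 504 and 309 CPM in Ptgs-competent TAMs (replicates 1, 2 and 3) and at 892, 1150 and 1115 CPM in Ptgs-deficient TAMs. The lowest Ptgs-deficient library lay above the highest Ptgs-competent one. The means were 472 ± 150 and 1052 ± 140 CPM (SD, n = 3). The log2 fold change was 1.16 ± 0.336 (SE), with a 95% interval from 0.41 to 1.90, and edgeR's adjusted p was 0.261. Without Ptgs-competent 3 the log2 fold change was 0.97 and the adjusted p 0.279, with the ranges still apart. Itgam passed an adjusted p of 0.05 in DESeq2 (adjusted p = 0.0137) and in limma voom (adjusted p = 0.0483), but at log2 fold changes of 1.12 and 1.19, under the 1.5 required. A gene of a later annotation, Gm49368, overlaps the 3′ end of Itgam on the same strand, and the featureCounts options for strand and for overlapping genes are not given in the sources used here. Monocyte markers were also higher, with the summed level of 6 markers at 527, 466 and 258 CPM across Ptgs-competent libraries against 1452, 2370 and 1925 CPM across the Ptgs-deficient ones, and 4 of 6 ranged higher without overlap, whereas Vcan ranged lower. The summed macrophage markers given above were higher too, with 6 of 12 ranging higher without overlap and 0 lower. Beside both lists, 970 of all 8793 genes tested ranged higher without overlap and 704 lower. Neutrophils also carry CD11b, and the sort removed Ly6G+ cells. The summed level of 12 neutrophil markers was 628, 724 and 621 CPM in the first group and 532, 473 and 452 CPM in the second. The part of these cells in the level of Itgam was not tested. In bulk samples such as these, fewer cells of a type and less RNA per cell cannot be told apart.

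Itgax showed the opposite order. It was at 344, 167 and 140 CPM in Ptgs-competent TAMs and at 134, 56.4 and 62.7 CPM in Ptgs-deficient TAMs. The groups did not overlap, although Ptgs-deficient 1 at 134 CPM lay just under Ptgs-competent 3 at 140 CPM. The log2 fold change was -1.36 ± 0.523 (SE), with a 95% interval from -2.53 to -0.20, and edgeR's adjusted p was 0.406. Without Ptgs-competent 1, the library with the highest level, it was -0.86 (adjusted p = 0.556), and without Ptgs-competent 3 it was -1.56 (adjusted p = 0.376). CD11c is carried by dendritic cells as well as by many tissue macrophages. The summed level of 8 dendritic cell markers was 303, 218 and 126 CPM across Ptgs-competent libraries against 368, 153 and 274 CPM across the Ptgs-deficient ones, which overlapped, and nearly all of it came from Irf8, which monocytes and macrophages also transcribe.

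Itgal and the shared beta2 chain overlapped between the groups. Itgal was at 62.8, 16.1 and 22.4 CPM in Ptgs-competent TAMs and at 18.6, 31.4 and 46.4 CPM in Ptgs-deficient TAMs. Its log2 fold change was -0.07 ± 1.08 (SE), with a 95% interval from -2.48 to 2.33. Neither a several-fold rise nor a several-fold fall lay outside that interval. Itgb2 was at 538, 321 and 106 CPM in Ptgs-competent TAMs and at 421, 395 and 530 CPM in Ptgs-deficient TAMs. Its log2 fold change was 0.48 ± 0.505 (SE), with a 95% interval from -0.64 to 1.60 and an adjusted p of 1. The lowest of these 6 values was in Ptgs-competent 3, and without that library the log2 fold change was 0.11. Without Ptgs-competent 1, which had the highest value, it was 1.07.

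Within a library, one subunit can be set against another without any scaling between libraries. The ratio of Itgax to Itgam counts was 0.570, 0.331 and 0.454 in Ptgs-competent TAMs and 0.150, 0.0491 and 0.0563 in Ptgs-deficient TAMs. It was lower in each Ptgs-deficient library than in any Ptgs-competent one, by 5.91 times on the mean of the log values. The exact two-sided permutation test gave p = 0.1, the smallest that 3 against 3 libraries allow, and 0.267 after adjustment over 8 ratios. Itgam made up 59.8%, 73.4% and 65.5% of the counts of the beta2-partner alpha chains Itgam, Itgax and Itgal in Ptgs-competent TAMs, and 85.4%, 92.9% and 91.1% in Ptgs-deficient TAMs. Itgax made up 34.0%, 24.3% and 29.7% in the first group and 12.8%, 4.56% and 5.12% in the second. The share of Itgal overlapped, at 2.34% to 6.22% and at 1.78% to 3.79%. The widest of the 95% Clopper-Pearson intervals for Itgam, in Ptgs-competent 3, ran from 63.5% to 67.5%. These intervals cover counting error only, and as the shares sum to the whole they are not independent of each other.

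**Figure D2:**
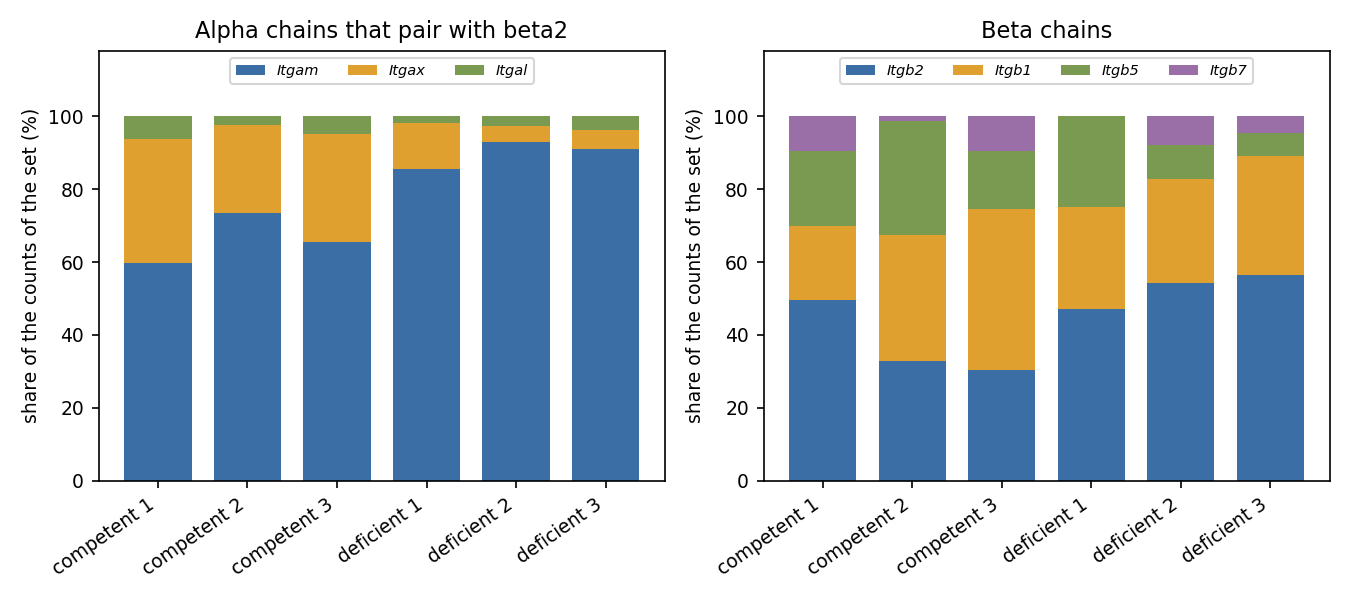
Share of counts, in percent, among the beta2-partner alpha chains Itgam, Itgax and Itgal and among the beta chains Itgb2, Itgb1, Itgb5 and Itgb7, with 1 stacked bar per library. Itgam takes 59.8% to 73.4% of alpha counts in the Ptgs-competent libraries and 85.4% to 92.9% in the Ptgs-deficient ones, whereas the beta chain shares vary within both groups.

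The summed alpha counts per beta2 count did not separate the groups. The ratio of Itgam, Itgax and Itgal together to Itgb2 was 1.88, 2.14 and 4.43 in Ptgs-competent TAMs and 2.48, 3.13 and 2.31 in Ptgs-deficient TAMs, and the exact permutation p was 1. The ratio of Itgal to Itgam overlapped as well, with a difference of -1.12 on the log2 scale and an exact permutation p of 0.2 (adjusted p = 0.4). Among the beta chains, Itgb2 took 30.4% to 49.7% of counts in the Ptgs-competent libraries and 47.2% to 56.4% in the Ptgs-deficient ones. The ratio of Itgb1 to Itgb2 was 0.409, 1.05 and 1.45 against 0.589, 0.525 and 0.579, and the exact permutation p was 0.4 (adjusted p = 0.64).

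Itga4 was at or near 0 in Ptgs-competent TAMs. Its raw counts were 5, 23 and 0 in those libraries and 67, 334 and 134 in the Ptgs-deficient ones. As CPM these were 0.797, 3.77 and 0 against 12.2, 39.8 and 27.7. Every Ptgs-deficient library lay above every Ptgs-competent one, and the count of 0 in Ptgs-competent 3 allows a level of up to 0.647 CPM (3 counts). The log2 fold change of 4.10 ± 2.29 (SE) had a 95% interval from -0.997 to 9.20, and edgeR's adjusted p was 0.789. Without Ptgs-competent 3 the log2 fold change was 3.59 (adjusted p = 0.652). Among the 13 alternative analyses it ranged from 3.59 to 5.96, always higher in Ptgs-deficient TAMs, and the lowest adjusted p was 0.226. Cerkl, which overlaps the 3′ end of Itga4 on the opposite strand, had 0 counts in every library. Lymphocytes and Ly6C+ monocytes are known carriers of the alpha4 chain. The summed T cell markers were at 39.0, 1.15 and 0 CPM across Ptgs-competent libraries against 61.1, 29.4 and 31.7 CPM across the Ptgs-deficient ones. Cd3e, Cd3g, Cd4, Cd8a, Cd8b1, Trac and Lat were at 0, and the sums came from Cd28, Il7r and Cd3d. Cd28 was at 0, 0.328 and 0 CPM against 19.9, 10.2 and 12.6 CPM, without overlap, whereas Il7r and Cd3d overlapped. The summed NK cell markers were at 2.23 to 2.80 CPM and at 17.2 to 31.6 CPM, with Ncr1, Klre1, Gzmb and Prf1 at 0 and Klrb1c, Nkg7, Eomes and Tbx21 under 1 CPM in each library. Nearly all of the Ptgs-deficient sum came from Klrk1 and Gzma, and the sort removed NK1.1+ cells. The part of these cells and of the monocyte markers given above in the level of Itga4 was not tested.

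The beta chains that pair with alpha4 did not separate the groups. Itgb1 was at 220, 337 and 155 CPM in Ptgs-competent TAMs and at 248, 207 and 307 CPM in Ptgs-deficient TAMs. The log2 fold change was 0.10 ± 0.391 (SE), with a 95% interval from -0.77 to 0.97, so that a doubling either way lay outside it. Itgb7 varied far more within the groups than between them. It was at 104, 13.8 and 33.4 CPM in Ptgs-competent TAMs and at 0, 57.3 and 43.9 CPM in Ptgs-deficient TAMs, with raw counts from 0 to 654. The library without an Itgb7 count, Ptgs-deficient 1, held 4891 counts of the 4 beta chains. That allows a share of Itgb7 of up to 0.0754% by the exact 95% interval, which covers counting error only. In the other 5 libraries the share ran from 1.41% to 9.63%. The ratio of Itga4 to Itgb1, computed with 0.5 counts added to each, was 0.00398, 0.0114 and 0.000696 in Ptgs-competent TAMs and 0.0496, 0.192 and 0.0907 in Ptgs-deficient TAMs. It was 30.1 times higher on the mean of the log values, at an exact permutation p of 0.1 and an adjusted p of 0.267. That multiple rests on few counts in the Ptgs-competent libraries, among them a count of 0. It was 7.66 times with 10 counts added in place of 0.5, and 14.1 times without Ptgs-competent 3. On the log2 scale the difference was 4.91, and it ranged from 3.82 without Ptgs-competent 3 to 5.84 without Ptgs-competent 2. The ratio of Itgb7 to Itgb1 overlapped (exact permutation p = 0.6, adjusted p = 0.686).

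Itga6 was lower in Ptgs-deficient TAMs, and its size depended on a single library. It was at 27.7, 94.4 and 271 CPM in Ptgs-competent TAMs and at 13.7, 17.1 and 26.9 CPM in Ptgs-deficient TAMs. The groups did not overlap, but Ptgs-competent 1 at 27.7 CPM and Ptgs-deficient 3 at 26.9 CPM were nearly level. In Ptgs-competent 3 it was the second most abundant of the 10 subunits. The log2 fold change was -2.77 ± 0.852 (SE), with a 95% interval from -4.66 to -0.87, and edgeR's adjusted p was 0.292. Without Ptgs-competent 3 the log2 fold change was -1.60 (adjusted p = 0.705). Over the 13 alternatives it ranged from -3.24 to -1.60. It passed both thresholds in DESeq2, at -2.87 (adjusted p = 0.0413), and in edgeR without the filter on low counts, at -2.76 (adjusted p = 0.0361), settings that called 3.73% and 1.89% of genes. Ptgs-competent 3, the library with the highest Itga6, also held the highest summed fibroblast markers, at 1119 CPM, and the lowest macrophage markers. Endothelial markers were at 104, 197 and 92.9 CPM across Ptgs-competent libraries against 71.9, 37.3 and 39.9 CPM across the Ptgs-deficient ones, with Cdh5, Emcn, Cldn5, Tek and Tie1 at 0, and most of the Ptgs-competent sum came from Pecam1, which leukocytes also transcribe. The sort required CD45, which fibroblasts and endothelial cells lack. The part of such cells in the level of Itga6 was not tested. The ratio of Itga6 to Itgb1, its partner chain, was 0.126, 0.280 and 1.75 in Ptgs-competent TAMs and 0.0555, 0.0829 and 0.0880 in Ptgs-deficient TAMs, 5.35 times lower on the mean of the log values (exact permutation p = 0.1, adjusted p = 0.267). It was 2.54 times lower without Ptgs-competent 3 and 9.47 times lower without Ptgs-competent 1.

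The chains of the vitronectin receptor overlapped between the groups. Itgav was at 9.88, 2.79 and 0 CPM in Ptgs-competent TAMs and at 17.5, 14.2 and 0 CPM in Ptgs-deficient TAMs, from at most 119 raw counts. The counts of 0 in Ptgs-competent 3 and Ptgs-deficient 3 allow up to 0.647 and 0.621 CPM. Its log2 fold change of 1.32 ± 2.69 (SE) was smaller than its error, and leaving out 1 library moved it from 0.78 (without Ptgs-competent 3) to 2.90 (without Ptgs-competent 1). Itgb5 was at 220, 303 and 55.4 CPM in Ptgs-competent TAMs and at 223, 67.3 and 59.2 CPM in Ptgs-deficient TAMs. The high libraries were Ptgs-competent 1 and 2 and Ptgs-deficient 1, and the log2 fold change was -0.73 ± 0.690 (SE), with a 95% interval from -2.26 to 0.81. Leaving out 1 library moved it from -1.57 (without Ptgs-deficient 1) to -0.25 (without Ptgs-competent 2), and it was -1.11 without Ptgs-competent 3. Itgb5 exceeded its alpha partner in every library, by 4.75 to 109 times in the 4 libraries with Itgav counts. With 0.5 counts added throughout, that ratio overlapped between the groups (exact permutation p = 0.6).

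Of 17 other integrin subunit genes, 9 had a count in some library and 4 could be tested, of which 0 were called by edgeR's quasi-likelihood test and 2 were lower at an unadjusted p under 0.05, against 0.216% called and 8.83% under that p in either direction among all genes. The median log2 fold change of the 4 was -2.56, against 0.02 for all genes tested, and it was the same with Itga7 set to its bound. Itga7, a laminin receptor chain best known from muscle, was at 10.4, 20.8 and 96.6 CPM in Ptgs-competent TAMs and at 0, 0.119 and 0 CPM in Ptgs-deficient TAMs, at least 83.8-fold lower against a floor of 3 counts per library (adjusted p = 0.174). Itga7 was highest in Ptgs-competent 3, and without that library the ratio to the floor was 30.7 (adjusted p = 0.525). Itga7 was called by the likelihood ratio test of edgeR (adjusted p = 0.00573), by DESeq2 (adjusted p = 5.16e-05) and by edgeR without the filter on low counts (adjusted p = 0.0263), but not by limma voom. Itga9, which binds tenascin and VCAM-1, ranged from 45.5 to 195 CPM in Ptgs-competent TAMs and from 26.4 to 54.0 CPM in Ptgs-deficient TAMs (log2 fold change -1.53 ± 0.668 SE, adjusted p = 0.536), and was at -0.98 without Ptgs-competent 1. Itgb3, the alternative beta partner of alphav, was at 34.7, 115 and 17.03 CPM against 0, 8.69 and 4.97 CPM (log2 fold change -3.60 ± 1.73 SE, adjusted p = 0.652). Leaving out 1 library moved Itgb3 from -4.48 (without Ptgs-deficient 2) to -2.50 (without Ptgs-competent 2). Itga5, the fibronectin receptor chain, had a log2 fold change of 0.04 (adjusted p = 1). Its sign turned under other scalings.

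Proteins that switch integrins on and tie them to actin went both ways. Of 42 such genes, 34 were tested, 17 fitted higher and 17 lower, around a median of 0.09 on the log2 scale. None was called by edgeR's quasi-likelihood test, and 6 of 34 had an unadjusted p under 0.05, 3 in each direction, against 0.216% and 8.83% of all genes. Fermt2, encoding kindlin-2, was at 6.69, 105 and 169 CPM in Ptgs-competent TAMs. In Ptgs-deficient TAMs it was at 0, 0.119 and 0 CPM (adjusted p = 0.06). The ratio of its Ptgs-competent mean to the floor was 184, which leaves out the spread between libraries. The 95% interval of its log2 fold change ran from -14.3 to -6.46. Fermt3, encoding kindlin-3, the form that leukocytes use, was at 156, 248 and 21.6 CPM against 117.7, 247 and 166 CPM (log2 fold change 0.32 ± 0.709 SE, adjusted p = 1). It was chosen for description after its values were seen, because it is the leukocyte counterpart of Fermt2. Parva, an adaptor of focal adhesions, was at 13.2, 55.1 and 76.3 CPM against 0, 0.119 and 0 CPM (adjusted p = 0.123). Its ratio to the floor was 94.8, and the 95% interval of its log2 fold change ran from -14.1 to -4.81. Both Fermt2 and Parva were highest in Ptgs-competent 3, the library with the most fibroblast marker counts, whose part was not tested. Actn1, encoding the actin crosslinker alpha-actinin 1, was at 126, 102 and 153 CPM against 24.8, 13.2 and 26.9 CPM (log2 fold change -2.56 ± 0.615 SE, adjusted p = 0.162). Zyx, encoding the focal adhesion protein zyxin, was at 70.1, 29.7 and 27.6 CPM against 249, 174 and 139 CPM (log2 fold change 2.14 ± 0.543 SE, adjusted p = 0.19). Neither Actn1 nor Zyx overlapped between the groups. Other tests called some of the list. The likelihood ratio test of edgeR, which called 2.74% of all genes, called 4 (Fermt2, Parva, Actn1 and Zyx). DESeq2, which called 3.73% of all genes, called these and Rasgrp1, which is named after its values were seen. Limma voom, which called 1.4% of all genes, called Parva alone. With the replicate number as a block (0.876% of all genes called) Fermt2 was called. Without the filter on low counts (1.89% called) Fermt2, Parva and Zyx were. Without Ptgs-competent 3 the ratios to the floor were 109.7 for Fermt2 (adjusted p = 0.176) and 67.2 for Parva (adjusted p = 0.316).

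Of 35 genes for ligands of these receptors, 17 were tested, 4 fitted higher and 13 lower, against 49.3% lower among all genes tested. Their median was -1.05 on the log2 scale, 1 was called, and 1 was higher and 2 were lower at an unadjusted p under 0.05, against 0.216% called and 8.83% under that p among all genes. The fibroblast markers given above were lower in the Ptgs-deficient group too, and their part in this list was not tested. Fn1, encoding fibronectin, the matrix ligand of alpha4beta1, rose from 166, 122 and 86.7 CPM to 722, 609 and 604 CPM (log2 fold change 2.37 ± 0.356 SE, adjusted p = 0.035). Without any one of 5 libraries, all but Ptgs-competent 3, its adjusted p lay above 0.05, from 0.0568 without Ptgs-competent 1 to 0.205 without Ptgs-deficient 3. Lamb1, encoding a laminin chain and thus part of a ligand of alpha6beta1, was at 34.9, 229 and 355 CPM against 21.2, 10.4 and 0 CPM (log2 fold change -4.29 ± 1.36 SE, adjusted p = 0.3), again highest in Ptgs-competent 3. Without that library Lamb1 was at -3.57 (adjusted p = 0.524), and DESeq2 called it with all 6 (adjusted p = 0.0188). Adam8, a membrane protease with an integrin-binding domain, was at 1492, 1089 and 589 CPM against 594, 365 and 277 CPM (log2 fold change -1.36 ± 0.425 SE, adjusted p = 0.298), with ranges that just overlapped, and limma voom called it at -1.61 (adjusted p = 0.00911). F11r, encoding the LFA-1 ligand JAM-A, was at 368, 191 and 147 CPM against 184, 58.1 and 53.0 CPM (log2 fold change -1.26 ± 0.584 SE, adjusted p = 0.607). Leaving out 1 library moved F11r from -2.06 (without Ptgs-deficient 1) to -0.77 (without Ptgs-competent 1).

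Tetraspanins and other membrane proteins that associate with integrins were all abundant enough to test. Of these 15 genes, 10 were fitted higher and 5 lower, against 49.3% lower among all genes tested. Their median was 0.27 on the log2 scale. The quasi-likelihood and likelihood ratio tests of edgeR called 0 of them, against 0.216% and 2.74% of all genes. A single member of the 15, Cd63, had an unadjusted p under 0.05, against 8.83% of all genes. Cd63 encodes a tetraspanin of lysosomes and granules. It was at 1536, 1836 and 1971 CPM in Ptgs-competent TAMs and at 796, 518 and 589 CPM in Ptgs-deficient TAMs, without overlap (log2 fold change -1.49 ± 0.303 SE, adjusted p = 0.0967). Its fold lay just under the threshold of 1.5, and it was called by DESeq2 at -1.55 (adjusted p = 9.77e-06) and by limma voom at -1.57 (adjusted p = 0.000903). Cd44, the hyaluronan receptor, had a log2 fold change of -0.80 (adjusted p = 0.571), Cd53, a leukocyte tetraspanin, of 0.66 (adjusted p = 0.84) and Tspan4 of -0.98 (adjusted p = 0.842). Without Ptgs-competent 3 they were at -0.41, 0.44 and -0.34, and Cd63 was at -1.36.

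**Figure D3:**
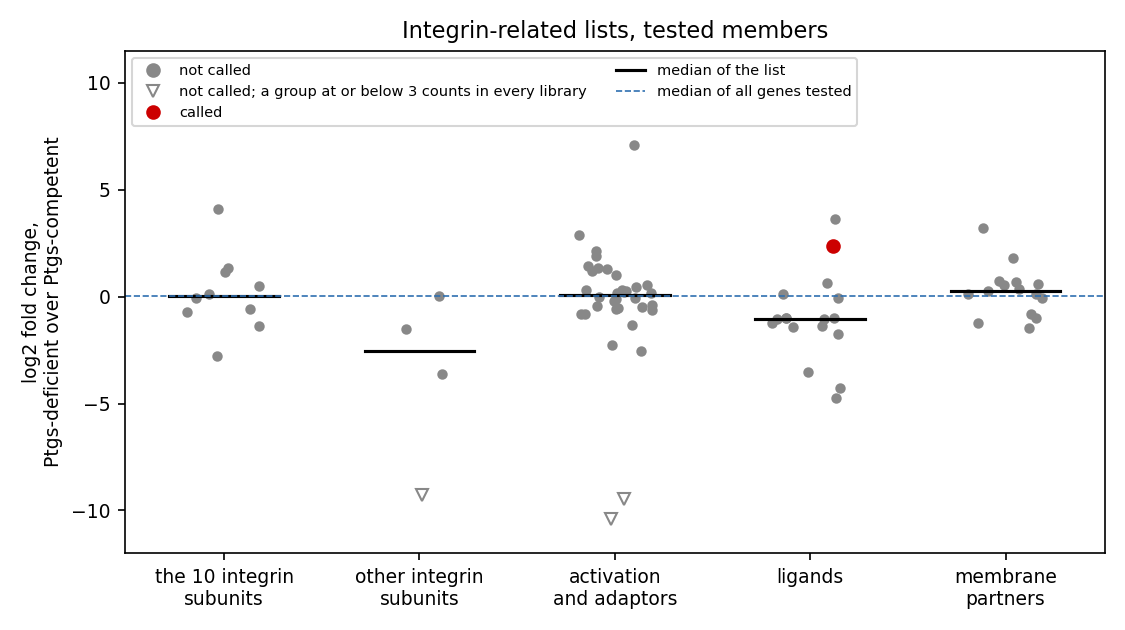
Log2 fold change, Ptgs-deficient over Ptgs-competent, of each tested gene in the 10 integrin subunits and 4 related gene lists, with 1 point per gene and a line at the median of each list. The medians are 0.01 for the subunits, -2.56 for the 4 other integrin chains, 0.09 for activators and adaptors, -1.05 for ligands and 0.27 for membrane partners.

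The genes lie on 6 chromosomes of GRCm38, by GENCODE M21, each position covering the whole gene. Itgal is at chr7:127296260-127335138, upstream of the Itgam and Itgax pair. Itga6 is at chr2:71745616-71858416, Itga4 at chr2:79255426-79333123 and Itgav at chr2:83724397-83806916, so that 3 of the alpha chains with unlike directions lie on chromosome 2. Itgb2 is at chr10:77530252-77565708, Itgb1 at chr8:128685654-128733200, Itgb5 at chr16:33829665-33949338 and Itgb7, the single member on the minus strand, at chr15:102215995-102231944. A count sums reads over the gene, so it is not placed in a given exon or UTR.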

How the data were processed

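RNA of sorted TAMs was sequenced from the 3′ end with QuantSeq FWD from 800 pg per library. The authors aligned reads with STAR to GRCm38, assigned them to annotated genes with featureCounts and deposited 1 table of raw read counts per gene. Molecular identifiers and the strand setting are not given in the sources used here. By the study's methods each library was a separate sample of pooled tumors, so p-values measure the spread between pools. Counts were analyzed in R 4.3.3 with edgeR 4.0.16: filterByExpr (minimum count 10, total 15), TMM scaling, and the quasi-likelihood test, two-sided, fitted over 8793 genes with Benjamini-Hochberg adjustment. Levels are TMM-scaled CPM, and SE is the log2 fold change over the square root of F. Ratios within libraries used 0.5 added counts and exact permutation tests. Alternatives used DESeq2 1.42.0 and limma 3.58.1. The subunits, the 4 related gene lists and the marker lists were chosen with earlier results of these data known. Named genes were the 10 subunits, Ptgs1, Ptgs2, and in each related list those called or up to 4 with the smallest p. Some genes of the lists are named in the table by older symbols and were matched by identifier.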

Additional observations from a re-analysis of the deposited data

How the results depend on the processing

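The 10 subunits were refitted under 13 alternatives, giving 130 values, of which 119 kept the direction and the side of the thresholds, 9 reversed and 2 newly passed. The 2 are Itga6, so that 1 subunit was called under DESeq2 and 1 without the filter on low counts. No reversed value had an unadjusted p under 0.05. The reversals were Itgal at 0.032 under limma voom and 0.15 with the replicate block, Itgav at -0.30 under limma voom, and those from leaving out 1 library, where Itgal ranged from -0.43 to 0.74, Itgb1 from -0.079 to 0.44 and Itgb7 from -1.20 to 0.52. Limma voom moved the median of all genes to 0.39 and the replicate block to 0.26. Over all genes, 19 were called, against 241 by the likelihood ratio test, 328 by DESeq2, 123 by limma voom and 252 without the filter. Leaving out 1 library gave 0 to 25 calls, with 0 without Ptgs-competent 1, where 1231 genes had an unadjusted p under 0.05, 11 without Ptgs-competent 2, 25 without Ptgs-competent 3, and 2, 4 and 3 without Ptgs-deficient 1, 2 and 3. The groups share replicate numbers, and deviations of same-numbered libraries from their group means correlated at -0.0488, -0.0224 and -0.0218. These values show no sign of a pairing, but with 3 libraries per group they cannot exclude one. With the replicate block 77 genes and none of the subunits were called. Itga5 reversed to -0.017 under DESeq2 and under its size factors, to -0.0071 with library totals, and ranged from -0.94 to 0.68 leaving out 1 library. Ptgs2 was 0.040 under limma voom. Leaving out 1 library, the log2 ratio of summed alpha chains to Itgb2 differed by -0.24 to 0.38 and that of Itgb7 to Itgb1 by -4.48 to 0.30. Among 18 other named genes, 5 of 234 values fell below the thresholds, all of them Fn1 without 1 library, and 21 newly passed, for Itga7, Fermt2, Parva, Actn1, Zyx, Lamb1, Adam8 and Cd63 under the other tests, the replicate block or no filter. Depth limits Itga4 and Itgav most, with group means under 5 CPM in Ptgs-competent TAMs.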
